A study of Mus musculus with 6 samples.

Results

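The DEAD-box and DEAH-box helicase genes were followed in mouse embryonic stem cells with and without an intact Ddx5 gene. The members were all genes of the deposited table whose symbol starts with Ddx or Dhx and a number, leaving out Ddx4, Ddx58 and Ddx3y. This gave 50 genes of 10989, 35 of them Ddx and 15 Dhx genes. RNA came from 4 knockout (KO) lines with the genotype DDX5-/- and from 2 wild-type (WT) replicates with the genotype DDX5+/+, all of the MPI-II line at passages 13 to 18. All 6 libraries came from cells kept on a feeder layer in serum and leukemia inhibitory factor, with 1 μM of the MEK inhibitor PD0325901 and 3 μM of a GSK3 inhibitor, per the labels' protocols. The KO lines were made with an SpCas9 nickase and a pair of guides, and each was grown from 1 clone after G418 selection, while the labels do not say whether the WT replicates were separate cultures. The p-values then measure only the spread between these libraries.

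DEAD-box and DEAH-box proteins are enzymes that use ATP to open short RNA duplexes or to pull proteins off RNA, and are named after the amino acid letters of a motif in their ATP-binding core. Different members act at each stage of an RNA's life, from transcription and splicing through nuclear export, translation and decay to the building of ribosomes. Ddx5 takes part in splicing, transcription and the processing of microRNA precursors, and its close paralog Ddx17 shares many of these tasks. Embryonic stem cells divide fast and express most of this family.

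The guides that define the KO lines were read from the labels' protocols and matched to a Ddx5 transcript of GENCODE M21 (build mm10). The transcript with the longest coding sequence was taken, which GENCODE M21 pairs with the RefSeq transcript named in the labels. The guides are shown because they fix where the nickase was aimed, with capitals marking the PAM, the short motif next to the target that Cas9 needs.
Target1: gagaccgcggccgggatcga
Target2: ggaaagaagtttggaaatccTGG
The first guide lay on chromosome 11 from 106788275 to 106788294 and the other from 106787009 to 106787028, both in coding sequence and both reading along the minus strand, as Ddx5 itself does. In this transcript of 13 exons the first site fell in exon 1 and the other in exon 2, with 1246 bases of genome between them, whereas the labels place both in the second exon. The PAM of the first guide is not shown, because its last base before the motif lies 2 bases from the end of exon 1 and the spliced transcript does not hold the next bases of the genome.

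Values are in the deposited units, a normalized expression score. Of the 10989 genes, the most abundant were placed on coarse steps of 10 genes each, and library totals lay between 14612799 and 14722877 as a result of the normalization, so that sequencing depth is unknown. Fold changes are log2 ratios of the scaled value (deposited units divided by 14.7012) plus 1, KO over WT, which understates changes of low genes. They were tested across all genes with limma and called at a Benjamini-Hochberg adjusted p below 0.05, and all adjusted p-values below come from this fit. The fit was repeated with each of the 6 libraries dropped in turn, called the leave-one-out fits below. Of the embryonic stem cell markers, 10 of 10 were above 0 in every library and 2 were called, Nanog higher (log2 0.89, adjusted p = 0.0154, lost without KO line 3 or WT replicate 2, up to 0.0601) and Klf4 lower (log2 -0.94, adjusted p = 0.0116). Their summed levels were 120243 to 128978 units in the KO lines against 166068 and 96273 units in WT. Without Dppa5a, which lay on top steps of the table, they were 83825 to 92560 units in the KO lines against 87174 and 78725 units in WT. Of 20 markers of feeder fibroblasts 19 were measured, 18 had a negative log2 change and 17 were called lower in KO, with a median log2 change of -2.63 over the 19. Their summed levels were 43081 to 46787 units in the KO lines against 90279 and 57833 units in WT, and without Fn1, also on top steps, 6629 to 10335 units in the KO lines against 53827 and 27978 units in WT. None of the 19 was at 0 in any library. The part of feeder RNA in the results below was not tested, and fewer cells of a type and less RNA per cell cannot be told apart in such samples.

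Ddx5 itself was the most changed member. It lay at 5854, 8450, 12793 and 5659 units in KO lines 1 to 4, against 36433 and 36436 units in the WT libraries, so that the groups were far apart and KO line 3 kept the most transcript. With all genes of a library sorted by deposited units, Ddx5 stood at places 396, 216, 106 and 416 in the KO lines, against 16 and 15 in WT. Its log2 change was -2.23 (SE 0.317, adjusted p = 0.00807), and the size of the fall is approximate, since both WT values share a coarse step near the top of the table. With estimated library weights Ddx5 did not pass (adjusted p = 0.092). A gene-level value shows how much Ddx5 RNA was left and not whether it can be translated.

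Ddx17 rose in every KO line. It had 12197, 10934, 10063 and 10934 units in KO lines 1 to 4, against 4395 and 4742 units in WT, and even the lowest KO line stood above both WT libraries. The rise was 2.41-fold by means and 1.27 on the log2 scale (SE 0.0955, adjusted p = 0.00201). KO line 3, with the most Ddx5, had the least Ddx17. The other lines did not follow this order, since KO line 4, with the least Ddx5 (5659 units), had the same Ddx17 value as KO line 2 (8450 units of Ddx5). Ddx17 lay at places 116 to 156 of the sorted KO libraries, where steps of the table can hide differences between lines. Within each library the ratio of Ddx17 to Ddx5 per kilobase of transcript was 1.83, 1.14, 0.691 and 1.70 in KO lines 1 to 4, against 0.106 and 0.114 in WT. By this measure Ddx17 was the more abundant of the pair in 3 KO lines and the less abundant in KO line 3 and both WT libraries. The sum of both genes was 16593 to 22856 units in the KO lines, against 40828 and 41178 units in WT, lower in each KO line than in both WT libraries.

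Across the family, 10 of 50 members were called, 5 higher in KO (Ddx17, Dhx34, Ddx19b, Ddx11 and Dhx35) and 5 lower (Ddx5, Ddx3x, Ddx20, Dhx9 and Ddx46). Over all 10989 genes 17.1% were called, 9.75% higher and 7.34% lower, so that the family's 20.0% is close to the background and is no result about helicases as a class. With median-ratio scaling the split became 2 higher and 6 lower, with Ddx11, Dhx35 and Ddx19b lost and Ddx39b gained. With estimated library weights 4 members were called (Ddx17, Dhx34, Ddx3x and Dhx9), 8.0% against 3.48% of all genes. Without a variance trend 7 were called, 14.0% against 15.4% of all genes, Ddx11, Dhx35 and Ddx19b being lost. The median log2 change of the members was -0.04, against 0.04 for all genes. Most members differed little, with 30 of 50 within 0.2 of no change on the log2 scale (60.0%, against 37.0% of all genes). The members were more highly expressed than all genes, with a median KO mean of 1522 against 547.5 units. Levels were not matched in this comparison. KO and WT did not overlap for 24 members, against 43.7% of all genes. All KO lines stood above WT in 11 of these, against 24.1% of all genes, and below WT in 13, against 19.6%. Without KO line 2 the count of called members was 4 (8.0%, against 4.30% of all genes) and without KO line 3 it was 5 (10.0%, against 5.21%). With any other library left out it lay between 7 and 10, or 14.0% to 20.0% of members, against 11.1% to 30.1% of all genes. The calls of Ddx5, Ddx17, Ddx3x and Dhx34 held in each of the 6 leave-one-out fits.

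**Figure D1:**
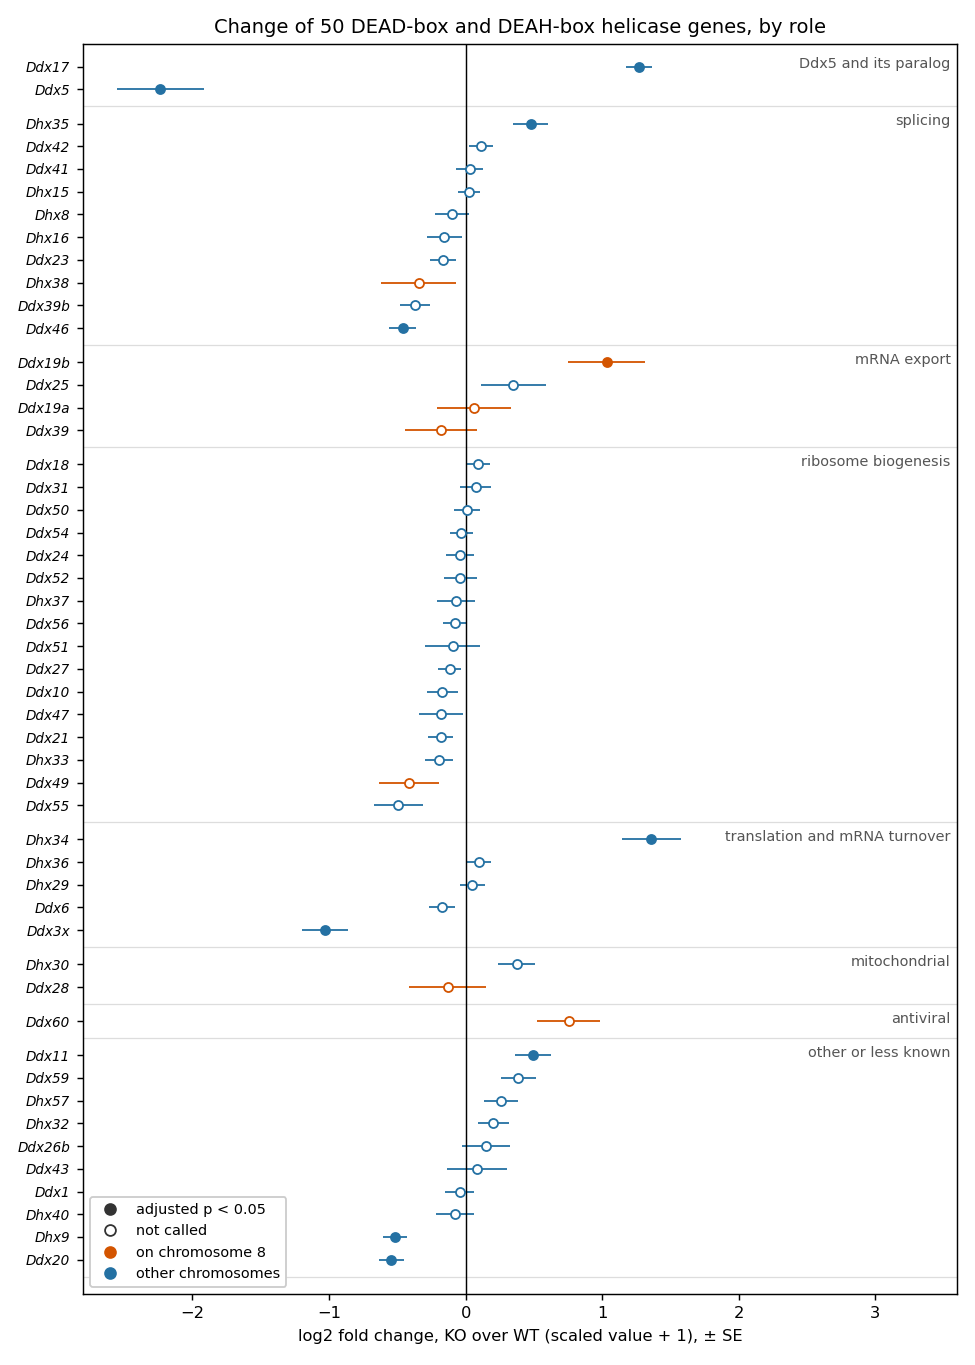
Log2 fold change (KO over WT) of each of the 50 helicase genes with its SE, grouped by role; filled points have an adjusted p below 0.05 and orange points lie on chromosome 8. Ddx17, Dhx34 and Ddx19b lie at 1.03 or above, Ddx5 and Ddx3x at -1.03 or below, and the 16 ribosome biogenesis genes between -0.49 and 0.09.

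Among helicases of translation and mRNA turnover, members fell and rose. Ddx3x, an X-linked helicase that helps ribosomes start on structured mRNAs, was lower in KO, with 15988, 14340, 14340 and 20656 units in KO lines 1 to 4, against 36416 and 29806 units in WT. KO line 4 was the highest of the KO lines and still below both WT libraries. The mean fell to 16331 ± 2986 units (SD, n = 4) in KO, against 33111 ± 4674 units (SD, n = 2) in WT, a log2 change of -1.03 (SE 0.167, adjusted p = 0.0118). Its place among all genes was 60 to 90 in the KO lines, against 20 and 29 in WT, and reads may be shared with its similar Y-linked copy. Dhx34, which acts in nonsense-mediated decay of faulty mRNAs, was higher in KO, with 414, 523, 522 and 567 units in KO lines 1 to 4, against 240 and 145 units in WT. The groups did not overlap, and the mean was 2.63 times as high in KO (log2 1.36, SE 0.216, adjusted p = 0.0112). The other 3 genes of this group did not pass. Ddx6, which promotes decapping and translational repression, differed by -0.17 on the log2 scale (adjusted p = 0.226), and Dhx36, which unwinds G-quadruplexes, by 0.10 (adjusted p = 0.48). Dhx29, which helps ribosomes scan structured mRNA, had a mean of 1154 ± 50.1 units (SD, n = 4) in KO and 1114 ± 7.78 units (SD, n = 2) in WT.

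Of the 10 splicing helicases, 1 rose, 1 fell and 8 did not pass (20.0% called, against 17.1% of all genes). Ddx46, needed when the spliceosome first engages the branch site, lay at 3046, 2662, 2896 and 3122 units in KO lines 1 to 4, against 3836 and 4236 units in WT. All KO lines stood below WT (log2 -0.46, SE 0.0983, adjusted p = 0.0241), and the call was lost when KO line 2, KO line 3 or WT replicate 2 was dropped (adjusted p up to 0.0778). Dhx35, a little studied protein found in spliceosomes, had 824, 926, 944 and 856 units in KO lines 1 to 4, against 562 and 712 units in WT (log2 0.48, SE 0.128, adjusted p = 0.0461). Of the 6 leave-one-out fits it passed in 1, that without WT replicate 2, and its adjusted p reached 0.13 in the others. Ddx39b, which works in both splicing and mRNA export, just missed the threshold with 6290, 5118, 5214 and 4986 units in KO lines 1 to 4, against 7098 and 6818 units in WT (log2 -0.37, SE 0.111, adjusted p = 0.0604). All its KO values lay below WT, and KO line 1 was the nearest; without that line Ddx39b passed (log2 -0.45, adjusted p = 0.0295). The helicases that remodel the spliceosome during its cycle did not pass. Ddx23 averaged 2292 ± 110 units in KO and 2577 ± 214 units in WT (SD, n = 4 and 2, as for the next 3 genes). Dhx8 averaged 1647 ± 66.8 units in KO and 1779 ± 327 units in WT, and Dhx16 averaged 4532 ± 597 units in KO and 5017 ± 144 units in WT. Dhx15, which takes spent spliceosomes apart, averaged 5986 ± 131 units in KO and 5894 ± 441 units in WT. Ddx41 and Ddx42 had log2 changes of 0.03 and 0.11, and Dhx38 is described with chromosome 8.

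**Figure D2:**
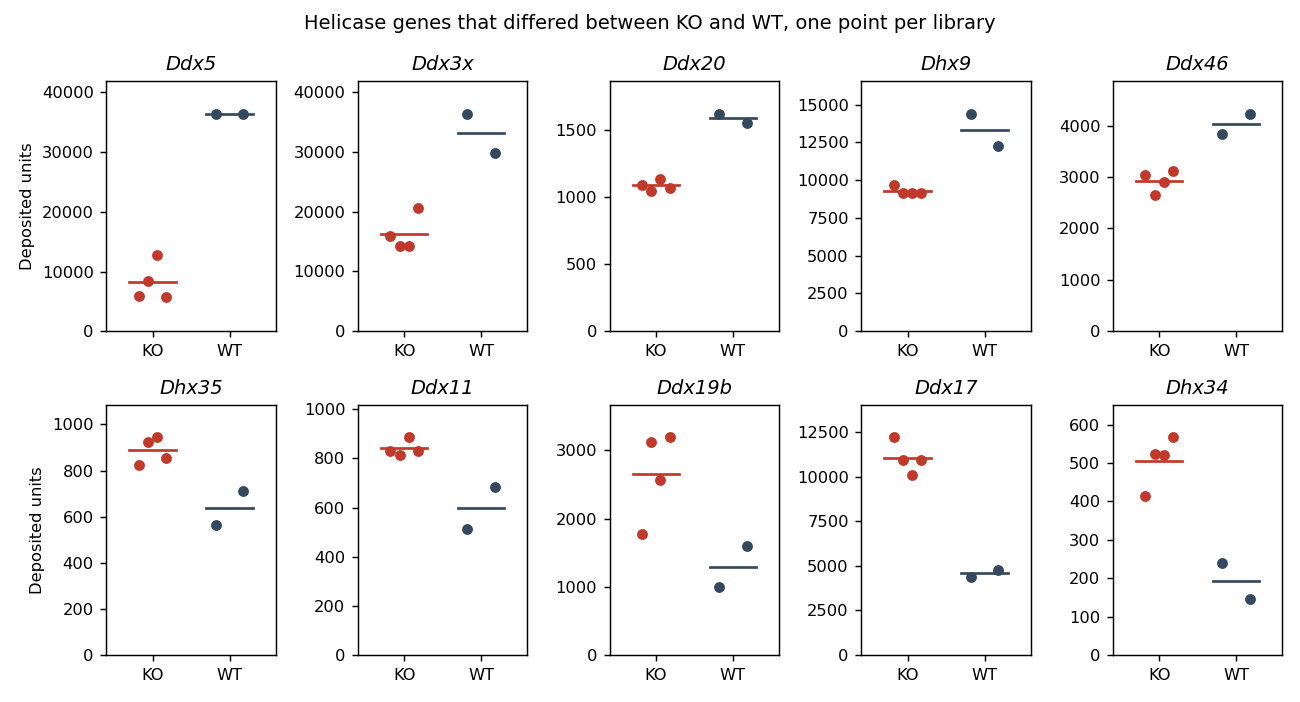
Deposited units of the 10 called helicase genes in each library, KO left of WT in each panel, with a bar at the group mean and each axis starting at 0. Ddx5 has 5659 to 12793 units in the KO lines, below both WT libraries at 36433 and 36436, and Ddx17 has 10063 to 12197 units in the KO lines, above WT at 4395 and 4742.

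None of the 16 ribosome biogenesis helicases, the largest role group of the family, passed in the main limma fit, against 17.1% of all genes. An unadjusted p below 0.05 was seen for 1 of them. Their median log2 change was -0.09, against 0.04 for all genes, with 13 negative and 3 positive values. Of the 16, 14 lay within 0.2 of no change (87.5%, against 37.0% of all genes, with expression levels not matched). Ddx21, which acts in transcription and processing of ribosomal RNA, had 5855, 6696, 6176 and 6826 units in KO lines 1 to 4, against 6958 and 7514 units in WT. Each KO line lay below both WT libraries, and the difference did not pass (log2 -0.18, SE 0.0926, adjusted p = 0.206). Ddx55, which acts on the large ribosomal subunit, had the largest difference of the group, with 389, 312, 355 and 254 units in KO lines 1 to 4, against 475 and 448 units in WT (log2 -0.49, SE 0.179, adjusted p = 0.098). Ddx49, on chromosome 8, came next at -0.41 (adjusted p = 0.222), and passed with the chromosome centring described below (adjusted p = 0.00867). Ddx10, Ddx18, Ddx24, Ddx27, Ddx31, Ddx47, Ddx50, Ddx51, Ddx52, Ddx54, Ddx56, Dhx33 and Dhx37 all lay between -0.20 and 0.09, with adjusted p between 0.217 and 0.951. Ddx50, the neighbour and paralog of Ddx21 on chromosome 10, averaged 1377 ± 34.7 units in KO and 1370 ± 128 units in WT (SD, n = 4 and 2).

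Of 10 genes with other or less known roles, Ddx20 and Dhx9 fell, Ddx11 rose and 7 did not pass (30.0% called, against 17.1% of all genes). Ddx20, part of the SMN complex that loads Sm proteins onto small nuclear RNAs, had 1093, 1048, 1135 and 1070 units in KO lines 1 to 4, against 1622 and 1555 units in WT. The KO lines were tightly grouped, and the log2 change was -0.54 (SE 0.0882, adjusted p = 0.0119), lost in 1 leave-one-out fit, that without KO line 2 (adjusted p = 0.0555). Dhx9, which unwinds double-stranded RNA and RNA-DNA hybrids and takes part in transcription, had 9702, 9114, 9114 and 9114 units in KO lines 1 to 4, against 14395 and 12228 units in WT. Its log2 change was -0.52 (SE 0.088, adjusted p = 0.0131), and the 3 equal KO values share place 181 of their sorted libraries, where steps of the table can hide differences between lines. The call was lost without KO line 2 or KO line 3 (adjusted p = 0.0549 and 0.0504). Ddx11, a DNA helicase for sister chromatid cohesion, had 832, 816, 886 and 832 units in KO lines 1 to 4, against 514 and 684 units in WT (log2 0.49, SE 0.132, adjusted p = 0.0455). Like Dhx35 it passed in 1 leave-one-out fit, that without WT replicate 2 (adjusted p up to 0.125 in the others).

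Of those that did not pass, Ddx59, linked to signalling through the primary cilium, had the largest difference, with 306, 305, 294 and 266 units in KO lines 1 to 4, against 215 and 226 units in WT, without overlap (log2 0.38, SE 0.128, adjusted p = 0.0793). Dhx57 lay at 344 to 368 units in the KO lines, against 324 and 268 units in WT (log2 0.26, adjusted p = 0.181), and passed without WT replicate 1 (log2 0.39, adjusted p = 0.0464). Ddx1, part of the tRNA ligase complex, averaged 4415 ± 398 units in KO and 4533 ± 210 units in WT (SD, n = 4 and 2). Ddx43, a helicase best known from germ cells and tumours, averaged 170 ± 14.5 units in KO and 163 ± 55.2 units in WT (SD, n = 4 and 2). Dhx32 and Dhx40 had log2 changes of 0.20 and -0.08. Ddx26b, which despite its name is related to a subunit of the Integrator complex, had one of 0.15. The mitochondrial pair, Dhx30 and Ddx28, did not pass. Dhx30, which works in mitochondrial RNA granules, had 1424, 1548, 1142 and 1324 units in KO lines 1 to 4, against 982 and 1101 units in WT (log2 0.37, SE 0.138, adjusted p = 0.102).

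The members on chromosome 8 also differed between libraries of the same genotype. They were Dhx38, Ddx19a, Ddx19b, Ddx28, Ddx39, Ddx49 and Ddx60, which is 7 of the 50 members (14.0%), where 5.49% of all genes lie on this chromosome. Of the 7, 1 was called (Ddx19b), against 13.3% of the genes of the chromosome. In all 7, KO lines 2, 3 and 4 each stood above KO line 1, as in 12 of the 43 members elsewhere. In 6 of the 7, WT replicate 2 stood above WT replicate 1, as in 23 of the 43 elsewhere, and the exception was Ddx60. The 603 measured genes of chromosome 8 moved in the same direction. Their median log2 difference was 0.50 between KO lines 2 to 4 and KO line 1. Between WT replicate 2 and WT replicate 1 it was 0.41. On the 18 chromosomes other than 6 and 8 these medians lay between -0.06 and -0.01 and between -0.15 and -0.01. The 7 members differed more between the WT replicates than the chromosome did, with a median of 0.77 against 0.41. The median SD of these members among KO lines was 0.29 on the log2 scale, against 0.09 for the other 43. It was also 0.29 for the 603 genes of the chromosome, so this spread was not particular to the helicases.

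**Figure D3:**
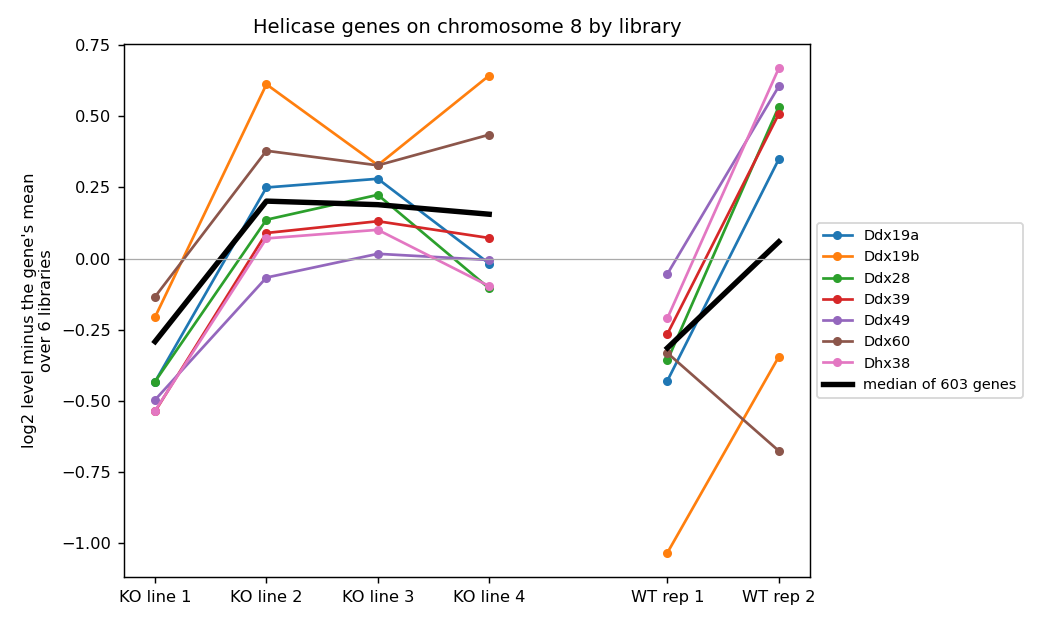
Log2 level of the 7 helicase genes on chromosome 8, each minus its own mean over the 6 libraries, with KO lines left of WT replicates; the thick line is the median of the 603 genes of this chromosome, likewise centred. KO line 1 and WT replicate 1 are low for most genes and for the median; the median difference over genes is 0.50 between KO lines 2 to 4 and KO line 1, and 0.41 between the WT replicates.

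KO line 1 was set beside WT replicate 1, and KO lines 2 to 4 beside WT replicate 2, that is, the low and the high libraries of each genotype for chromosome 8; this was chosen after seeing the data and was not tested. In both settings 5 of these genes had lower values in KO and 2 higher ones. Each setting rests on 1 WT library. The share of all genes of the chromosome with such a pattern is not given here, so these counts are no result about helicases. Ddx49, for ribosome biogenesis, had 972 units in KO line 1 against 1326 in WT replicate 1, and 1314, 1393 and 1372 in KO lines 2 to 4 against 2101 in WT replicate 2. Dhx38, which acts at the second step of splicing, had 1504 units in KO line 1 against 1888 in WT replicate 1, and 2295, 2344 and 2042 in KO lines 2 to 4 against 3480 in WT replicate 2. Ddx39, a paralog of Ddx39b with a role in mRNA export, had 2980 units in KO line 1 against 3602 in WT replicate 1, and 4608, 4742 and 4552 in KO lines 2 to 4 against 6161 in WT replicate 2. In all 3 each KO line lay below the WT library set beside it, while KO and WT overlapped over all 6 libraries. None of them passed the test over all libraries (log2 -0.41, -0.34 and -0.18, adjusted p = 0.222, 0.402 and 0.65 for Ddx49, Dhx38 and Ddx39). After the median of each chromosome was set equal across libraries, all 3 passed, with log2 changes of -0.64, -0.57 and -0.41 (adjusted p = 0.00867, 0.0286 and 0.0454). This centring was chosen after seeing the data. It removes the median shift of a chromosome, and these 3 genes differed by more than that between the WT replicates. It called 14 of 50 members (28.0%, against 20.9% of all genes), the 10 above with Ddx39b and these 3. On chromosome 8 it called these 3 and Ddx19b but not Ddx19a, Ddx28 or Ddx60, and it called 22.6% of all genes of that chromosome.

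Ddx28, which helps assemble mitochondrial ribosomes, and Ddx19a, which releases mRNA at the nuclear pore, had smaller differences. Ddx28 had 288 units in KO line 1 against 304 in WT replicate 1, and 434, 462 and 365 in KO lines 2 to 4 against 576 in WT replicate 2 (log2 -0.13 over all libraries, adjusted p = 0.766). Ddx19a had 1498 units in KO line 1 against 1502 in WT replicate 1, and 2412, 2464 and 2002 in KO lines 2 to 4 against 2585 in WT replicate 2. Neither passed with centring (adjusted p = 0.166 and 0.399), and the sign of the Ddx19a change depended on it (log2 0.06 as deposited, -0.17 centred).

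Ddx19b and Ddx60 had higher values in KO. Ddx19b, a paralog of Ddx19a 5387 bases away with the same role at the nuclear pore, had 1766, 3122, 2562 and 3190 units in KO lines 1 to 4, against 989 and 1602 units in WT. The lowest KO line lay just above the higher WT replicate (log2 1.03, SE 0.284, adjusted p = 0.0487), and the call was lost without KO line 2, 3 or 4 or WT replicate 1 (adjusted p up to 0.166). After centring the log2 change of Ddx19b was 0.81 (SE 0.138, adjusted p = 0.00965). The ratio of Ddx19b to Ddx19a in deposited units, in which a shift of the whole chromosome cancels, was 1.18, 1.29, 1.04 and 1.59 in KO lines 1 to 4, against 0.658 and 0.62 in WT. The log2 ratio, with the pseudocount, was higher by 0.97 in KO, without overlap; the two-sided exact permutation test gave p = 0.133, the smallest it can give with 4 against 2 libraries, and 0.178 adjusted over the 4 paralog ratios compared. Reads of these similar genes may have been split between them, so the level of each is uncertain. Ddx60, an antiviral helicase induced by interferon, had 126, 186, 179 and 194 units in KO lines 1 to 4, against 108 and 82 units in WT (log2 0.75, SE 0.23, adjusted p = 0.0629). All KO lines lay above WT, and the gene passed without KO line 1 (adjusted p = 0.0487) and without WT replicate 1 (adjusted p = 0.0451). After centring its log2 change was 0.53 (SE 0.237, adjusted p = 0.144). It was the only measured gene of the antiviral group, since Dhx58, also listed, was not among the measured genes.

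Of the 4 export helicases Ddx19b rose and the other 3 (Ddx19a, Ddx25 and Ddx39) did not pass. Ddx25, known from male germ cells, was the lowest member per kilobase, with 82, 72, 96 and 86 units in KO lines 1 to 4, against 61 and 64 units in WT (log2 0.35, SE 0.236, adjusted p = 0.328). The 1 member on chromosome 6 was Ddx47. The genes of that chromosome stood higher in KO line 4 than in the other KO lines by a median log2 of 0.45. Ddx47 had 1262, 1223, 1429 and 1671 units in KO lines 1 to 4, against 1402 and 1762 units in WT, highest in line 4 among the KO lines.

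Levels between genes were compared per kilobase of transcript, on the scaled values and over GENCODE M21 transcript lengths. Dividing by length assumes a score not already corrected for length, which is unknown here, so the order of genes is tentative. Ddx3x was the highest member in KO at 237 scaled units per kilobase, followed by Ddx39b at 208, Ddx17 at 185, Ddx39 at 160, and Ddx5 at 157. In WT the order began with Ddx5 at 696 and Ddx3x at 480 scaled units per kilobase, then Ddx39b at 267, Dhx9 at 197 and Ddx39 at 185. In WT replicate 1 Ddx5 and Ddx3x (36433 and 36416 units) lay on the same coarse step, so their order there rests mostly on transcript length. Neighbours in this order could differ by less than their spread over libraries. Ddx5 ranged from 108 to 245 scaled units per kilobase among the KO lines, which spans the KO means of Ddx17 and Ddx39. Ddx17 had rank 3 in KO and rank 10 in WT, where it had 76.7 scaled units per kilobase. At the other end Ddx25 had 0.824 scaled units per kilobase in KO and 0.613 in WT, and Ddx60 1.86 in KO and 1.03 in WT. No member was at 0 in any library, and all 50 passed the filter on low values. Their summed level in deposited units was 128624 to 135529 units in the KO lines, against 179528 and 180808 units in WT. Without Ddx5 and Ddx17 the sum was 110573 to 117214 units in the KO lines, against 138700 and 139630 units in WT. With Ddx3x and Dhx9 left out as well it was 84883 to 89253 units in the KO lines, against 87889 and 97596 units in WT, so that the groups overlapped. Both genes are abundant and were called lower, so leaving them out was bound to narrow the gap. KO lines 1 and 4 still lay below both WT libraries (84883 and 87444 units).

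**Figure D4:**
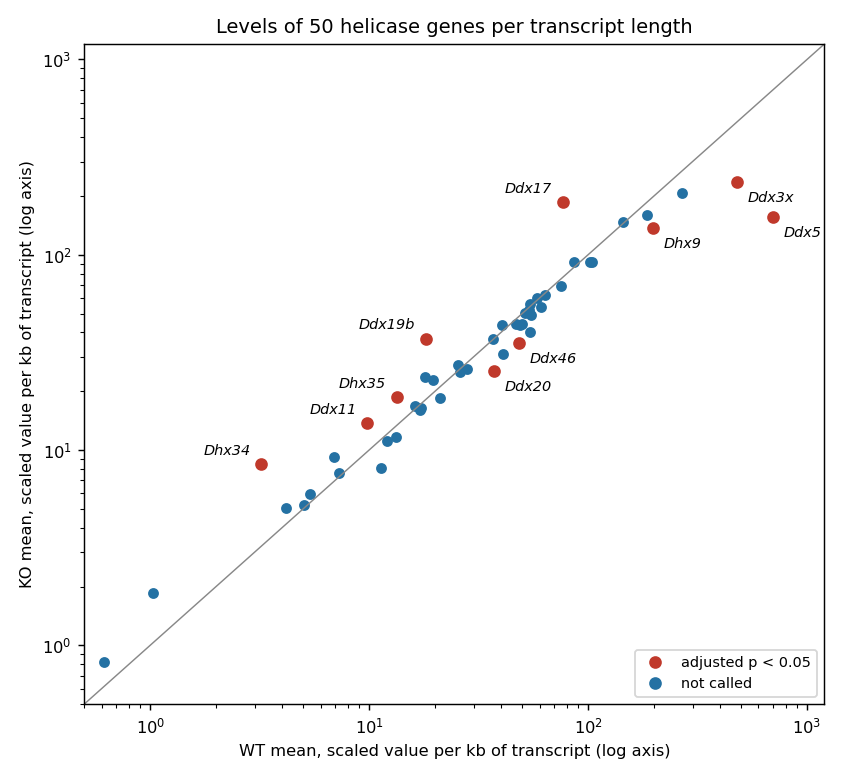
Mean scaled value per kilobase of transcript in KO (vertical) against WT (horizontal) for the 50 helicase genes, both on log axes, with the line of equal levels; red points are called members. Ddx5 lies at 157 in KO and 696 in WT, Ddx17 at 185 in KO and 76.7 in WT, and most others lie close to the line.

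Helicases of the same superfamily under other names did not pass. Of 14 listed genes 11 were measured and none was called, against 17.1% of all genes, with a median log2 change of 0.17, while 3 had an unadjusted limma p below 0.05. Without WT replicate 1, 3 of the 11 were called, 1 higher and 2 lower, in a fit that called 30.1% of all genes. The 3 paralogs of the translation initiation helicase were Eif4a1, Eif4a2 and Eif4a3, the last a core part of the exon junction complex, with log2 changes of -0.13, 0.00 and -0.32 (adjusted p = 0.466, 0.995 and 0.0938). Supv3l1, a helicase of mitochondrial RNA decay, had 1124, 1232, 1266 and 1201 units in KO lines 1 to 4, against 1002 and 872 units in WT (log2 0.36, SE 0.104, adjusted p = 0.0552). Snrnp200, the helicase that unwinds the spliceosomal small nuclear RNAs, and Dicer1, which cuts microRNA precursors, had log2 changes of -0.07 and 0.27 (adjusted p = 0.538 and 0.14).

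Among 35 measured genes listed as partners of RNA helicases, of this family or under other names, 8 were called, 2 higher and 6 lower. This is 22.9%, against 17.1% of all genes, with a median log2 change of 0.02. The count varied with the library left out, as did that of all genes. It was 15 without WT replicate 1 (30.1% of all genes called), 5 without KO line 1 (11.1%), 3 without WT replicate 2 (13.5%), 1 without KO line 2 (4.30%) and 1 without KO line 3 (5.21%). Of the 23 G-patch proteins, which stimulate DEAH-box helicases, Gpatch3, Gpkow and Gpatch4 were lower (log2 -1.54, -0.57 and -0.45, adjusted p = 0.0322, 0.0205 and 0.0236). Gpatch3 had 89, 108, 119 and 68 units in the KO lines, against 194 and 464 units in WT, and the WT replicates were far apart. Of the 10 genes for MIF4G-domain proteins and Gle1, a group that includes regulators of DEAD-box helicases, Ctif and Eif4g3 were higher and Eif4g2 and Gle1 lower. Ctif, a factor for the first round of translation of new mRNAs, had 290, 288, 314 and 268 units in the KO lines, against 136 and 154 units in WT (log2 0.93, SE 0.139, adjusted p = 0.0091), and its call held in all 6 leave-one-out fits. Eif4g3, a scaffold of translation initiation, had 595, 923, 768 and 1047 units in the KO lines, against 435 and 354 units in WT (log2 1.03, SE 0.227, adjusted p = 0.0263). Gle1, which activates the Ddx19 proteins at the nuclear pore, had 758, 799, 833 and 755 units in the KO lines, against 1036 and 1148 units in WT (log2 -0.47, SE 0.101, adjusted p = 0.0249). Eif4g2, a relative of the initiation scaffold, had 20775 units in all 4 KO lines, 1 step of the table, against 25020 and 29870 units in WT (log2 -0.40, SE 0.0842, adjusted p = 0.0237). In the Microprocessor, the nuclear complex with which Ddx5 and Ddx17 associate, Dgcr8 had 1019, 1016, 1012 and 860 units in the KO lines, against 1412 and 1367 units in WT (log2 -0.51, SE 0.108, adjusted p = 0.0241). The Microprocessor's nuclease Drosha had a log2 change of 0.02 (adjusted p = 0.922). Apart from Ctif, each of these 8 calls was lost when KO line 2 was dropped (adjusted p = 0.0748 to 0.0854) or KO line 3 (0.0642 to 0.0728). Those of Gpatch3, Gpatch4, Eif4g3, Gle1 and Dgcr8 were also lost without WT replicate 2 (adjusted p = 0.0532 to 0.108), those of Gpatch3, Gle1 and Eif4g2 without KO line 1 (0.0532 to 0.0678), and that of Gpatch3 without KO line 4 (0.0622).

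The members varied little between libraries of 1 group. The median SD among KO lines was 0.10 on the log2 scale, against 0.15 for all genes, and the median absolute difference between the WT replicates was 0.19, against 0.31 for all genes. Expression levels were not matched between the members and all genes in this comparison.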

How the data were processed

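Libraries were grouped by genotype as labelled. RSEM 1.2.17, Bowtie2 2.2.0 and build mm10 are listed in the submitters' processing notes; the sources used here give neither their roles nor the annotation and normalization. The deposited values, named CPM by the authors, are whole numbers with nearly equal sums and equal top steps. The deposited score was thus normalized by the authors in a way not given, and is handled as a score of unknown unit, although the test had been planned for CPM. Deposited units were divided by 14.7012 (from the mean library total), 1 was added and log2 taken. A filter kept genes that reached a scaled value of 1 in 2 or more libraries. The comparison used limma 3.58.1 under R 4.3.3 (lmFit, eBayes with trend, two-sided) on 4 KO and 2 WT libraries with no covariate, adjusted over all 10989 genes, and was tested on simulated data. With depth unknown, no counting interval is given. Positions and transcript lengths come from GENCODE M21 and matched all 50 members. Members, role groups, partner lists and markers were chosen with earlier results of these data known. By rule, values per library are given for Ddx5, Ddx17 and called members with a log2 change of at least 0.5 in size; those of other genes were chosen after their values were seen. Alternatives covered the pseudocount, filter, scaling, library weights, trend, replicate block and single libraries. The chromosome centring and the ratios between paralogs were added after seeing the data.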

Additional observations from a re-analysis of the deposited data

Results flagged for a closer look

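In 4 of the 50 members 1 KO line stood far from the other 3 relative to the range of the group. Chance alone would flag about 5% of such groups if values were independent and not tied. Tied steps and the shift shared on chromosome 8 break this, so 5% is no background here. Ddx39, on chromosome 8, was low in KO line 1 at 2980 units, against 4552 to 4742 in the other lines. Dhx9 was high in KO line 1 at 9702 units and Dhx15 low in it at 5790 units, where in both genes the other 3 lines share 1 value of the stepped table (9114 and 6051 units). Ddx42 was low in KO line 4 at 2406 units, against 2621 to 2658 units in the other lines.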

How the results depend on the processing

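The calls of Ddx17, Ddx3x and Dhx34 held in every alternative except the replicate block, and that of Ddx5 in every one except library weights (adjusted p = 0.092). The direction of every called member held in all alternatives. Library weights called 382 genes (206 higher, 176 lower), 4 members (2 higher, 2 lower) and 1 partner, higher, with 0 lower. The replicate block (replicate numbers as a term) passed 20 genes (2 higher, 18 lower), 1 member (0 higher, 1 lower) and 0 partners. Only numbers 1 and 2 occur in both groups, and the deviations of same-numbered libraries correlated at 0.14 and 0.10 across genes, so the numbers were not taken as pairs. Higher members numbered 2 with median-ratio scaling and 2 without a trend; with chromosome centring 9 members were lower and 1 related helicase was called, higher. With 1 library left out, called genes ranged from 472 to 3304 (higher 237 to 2004, lower 235 to 1300) and called members from 4 to 10 (higher 2 to 5, lower 2 to 6). Related helicases then ranged from 0 to 3 (higher 0 to 1, lower 0 to 2) and partners from 1 to 15 (higher 1 to 7, lower 0 to 8). With 1 WT library the spread comes from the KO lines alone. Of the 6 uncalled members on chromosome 8, 4 changed sign with a library left out. Ddx39 lay between -0.57 and 0.20, Ddx28 between -0.58 and 0.31, Dhx38 between -0.78 and 0.0942 and Ddx19a between -0.33 and 0.45, and Ddx19a was -0.0516 with the block and -0.17 with chromosome centring. The cause of these shifts was not tested. The steps of the table limit the precision of the most abundant members, and the depth of each library is unknown.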
